A study of Mus musculus with 12 samples.

Results

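The Il7r locus of the mouse is described here through its open chromatin in cultured T helper cells. Il7r encodes the alpha chain of the interleukin-7 receptor (CD127). A peak, meaning a stretch of open chromatin, was counted to the locus when its centre lay in the mm10 span of Il7r, or otherwise when Il7r was the nearest protein-coding span within 50 kb. The rule gave 16 of 222105 peaks, 7 with their centre within the gene and 9 outside it, and all 16 had enough counts to be tested. In assembly GRCm38.p6, which is the mm10 build, Il7r (gene ID 16197) lies on the minus strand of chromosome 15 from 9506159 to 9529941, so upstream of its transcript start means higher coordinates. No source used here gives the exons and introns, so positions are stated as within or outside the gene.

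The libraries are ATAC-seq, in which a transposase cuts accessible DNA and the fragments are counted by position. Naive CD4+ T cells of C57/B6 mice, taken from the spleen and dLN (draining lymph nodes), were turned in culture into homeostatic Th17 cells, an IL-17-producing helper state of low inflammatory potential, and kept for 2 days either untreated or with dexamethasone (Dex), a synthetic glucocorticoid. The groups were WT control, WT Dex, cKO control and cKO Dex, with 3 libraries each, where cKO is the GR cKO genotype, a conditional knockout of the glucocorticoid receptor. No source used here gives the Cre driver, the ages of the mice or whether libraries of a group came from separate animals, and the p-values therefore cover only library-to-library spread, which may be technical. In bulk libraries, a site open in more cells and a site more open in each cell cannot be told apart.

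IL-7 is a cytokine made mainly by stromal cells, and it keeps resting and memory T cells alive. Its receptor pairs the Il7r product with the common gamma chain Il2rg. The kinases Jak1 and Jak3 then activate STAT5, which raises survival proteins such as Bcl2. Il7r is regulated mostly at transcription: Foxo1 and ETS family factors promote it, Gfi1 and Foxp1 restrain it, and glucocorticoids are known to raise it in T cells, where a conserved enhancer upstream of the promoter carries a glucocorticoid receptor motif. Whether any peak below is that enhancer was not tested.

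The promoter is shown because a peak covers it and because its letters can be set beside that peak's response. The 250 bases before the RefSeq transcript start of Il7r lie at chr15:9529877-9530126 (GRCm38.p6, minus strand). They are printed 5′ to 3′ with capitals marking a match to the ETS motif and a match to the STAT spacing. The gene span given above reaches 9529941, so its 5′ end lies further upstream than this transcript start, at 9529876. The last bases printed, the ETS match among them, therefore lie within that span.

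Il7r promoter: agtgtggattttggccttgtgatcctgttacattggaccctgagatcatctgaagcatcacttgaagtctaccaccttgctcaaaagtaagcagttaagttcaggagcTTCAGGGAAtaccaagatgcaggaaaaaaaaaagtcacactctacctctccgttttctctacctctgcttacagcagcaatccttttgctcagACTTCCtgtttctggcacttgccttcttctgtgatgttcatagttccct

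Motifs were searched on both strands of these 250 bases. The ETS motif GGAAGT occurred once, as its reverse complement ACTTCC starting 49 bases before the transcript start. Of the 32851 RefSeq promoter windows of this length, 19.7% held at least one match. The shorter stretch GGAA, which these bases also hold elsewhere, was not counted by itself. The STAT spacing TTCNNNGAA occurred once, 142 bases before the start, against 7.02% of windows. The glucocorticoid receptor half-site AGAACA had no match, against 16.1% of windows. The full glucocorticoid receptor palindrome, the RUNX core TGTGGT and the FOXO motif GTAAACA had none either, against 0.00913%, 14.05% and 3.17%. A match or its lack describes these letters only. The sequence under the upstream and intragenic peaks described next is not shown, as no genome sequence was used here.

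The locus was uneven in openness. Levels are given in CPM, counts scaled to a common library size with TMM factors. The 3 peaks with the highest level held 72.8% of the summed mean CPM of the 16. They were the peak just inside the gene (9526983 to 9529173, mean over the 12 libraries 47.9 CPM), a peak between genes whose centre lies 5736 bases upstream of the transcript start (9534805 to 9536420, 31.4 CPM) and the promoter peak (9529422 to 9530441, 24.5 CPM), which spans the transcript start. Per kb of peak, the promoter peak was the most open at 24.0 CPM per kb, followed by the inside peak at 21.9. A narrow peak 19301 bases outside the gene (9549014 to 9549471) and the 9534805 peak came next, the latter at 19.5 CPM per kb. At the other end, 6 peaks had means between 0.454 and 1.06 CPM, which at these depths is 8.67 to 20.1 counts per library, so only large changes could be seen there.

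**Figure D1:**
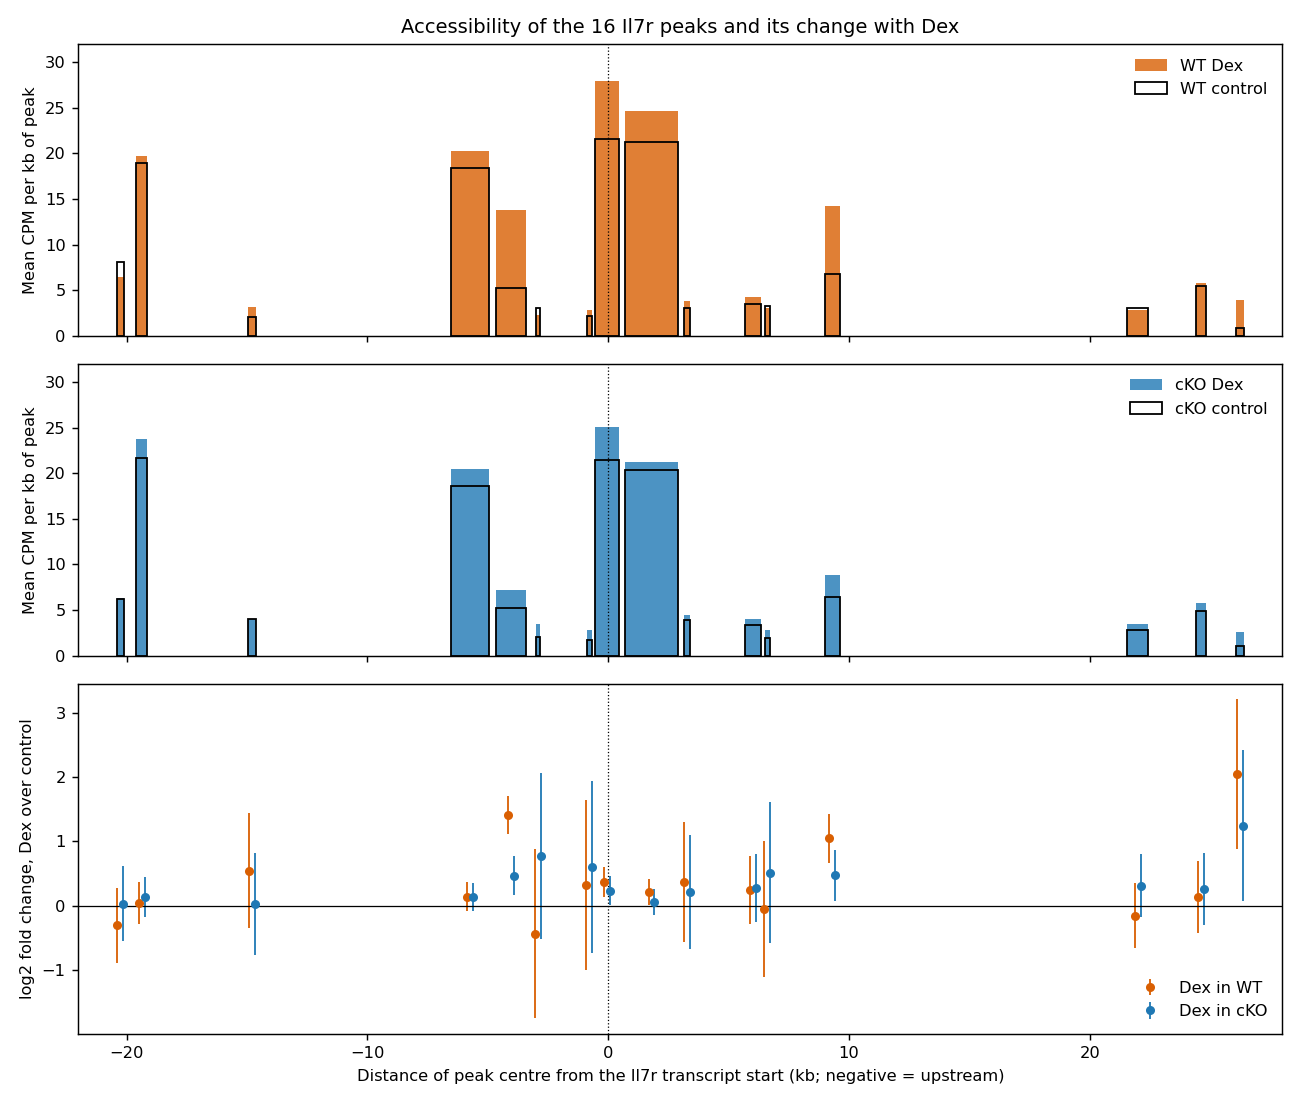
The 16 Il7r peaks by distance of their centre from the transcript start (kb, negative upstream). The upper panels show mean CPM per kb in WT and cKO, with outlines for control and filled bars for Dex, each bar as wide as its peak, n = 3 per group. The lower panel shows the log2 fold change of Dex over control with its 95% interval. The peak 4.04 kb upstream and the one 9.31 kb inside the gene stand apart in WT, at log2 values of 1.41 and 1.04.

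Dex treatment of WT cells asked where this chromatin changes with Dex when the receptor gene is not targeted. It raised 2 Il7r peaks, one upstream of the gene and one inside it, and lowered none. Called here means a Benjamini-Hochberg adjusted p under 0.05 in edgeR's quasi-likelihood test over all 202587 tested peaks. The 2 of 16 Il7r peaks stand against 0.534% of all tested peaks called in this comparison, and 0.42% called higher. The other 14 had log2 values between -0.44 and 2.04.

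The upstream responsive peak lies between genes on chromosome 15 from 9533291 to 9534549 (mm10), 3415 to 4673 bases before the transcript start. The WT control libraries gave 7.25, 6.41 and 6.06 CPM, and WT Dex gave 17.8, 16.7 and 17.5 CPM. The cKO control libraries gave 5.28, 7.36 and 6.90 CPM, and cKO Dex gave 8.70, 9.39 and 8.98 CPM. All 3 WT Dex libraries lay above the other 9, the cKO Dex libraries lay above every control library of either genotype, and the control libraries of WT and cKO overlapped. The rise in WT was 2.66-fold (log2 1.41 ± 0.15, SE, n = 3 per group, 95% interval 1.12 to 1.70, adjusted p = 3.45e-10). By p-value it ranked 35 of all tested peaks, and 153 of the 851 peaks called higher rose more. Counts behind these values were 88 to 308 per library.

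The intragenic responsive peak lies from 9520263 to 9520871, with its centre 9309 bases downstream of the transcript start. Here WT control gave 2.97, 4.73 and 4.62 CPM, and WT Dex gave 8.07, 9.32 and 8.56 CPM. The cKO control libraries gave 3.36, 4.07 and 4.26 CPM, and cKO Dex gave 3.94, 6.98 and 5.28 CPM. The WT Dex libraries again lay above all others, while cKO control and cKO Dex overlapped. The rise in WT was 2.06-fold (log2 1.04 ± 0.19, SE, n = 3 per group, adjusted p = 0.000517). Both responsive peaks were of modest level, and with Dex in WT they reached 13.8 and 14.2 CPM per kb, still under the 27.9 CPM per kb of the promoter peak in the same cells.

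**Figure D2:**
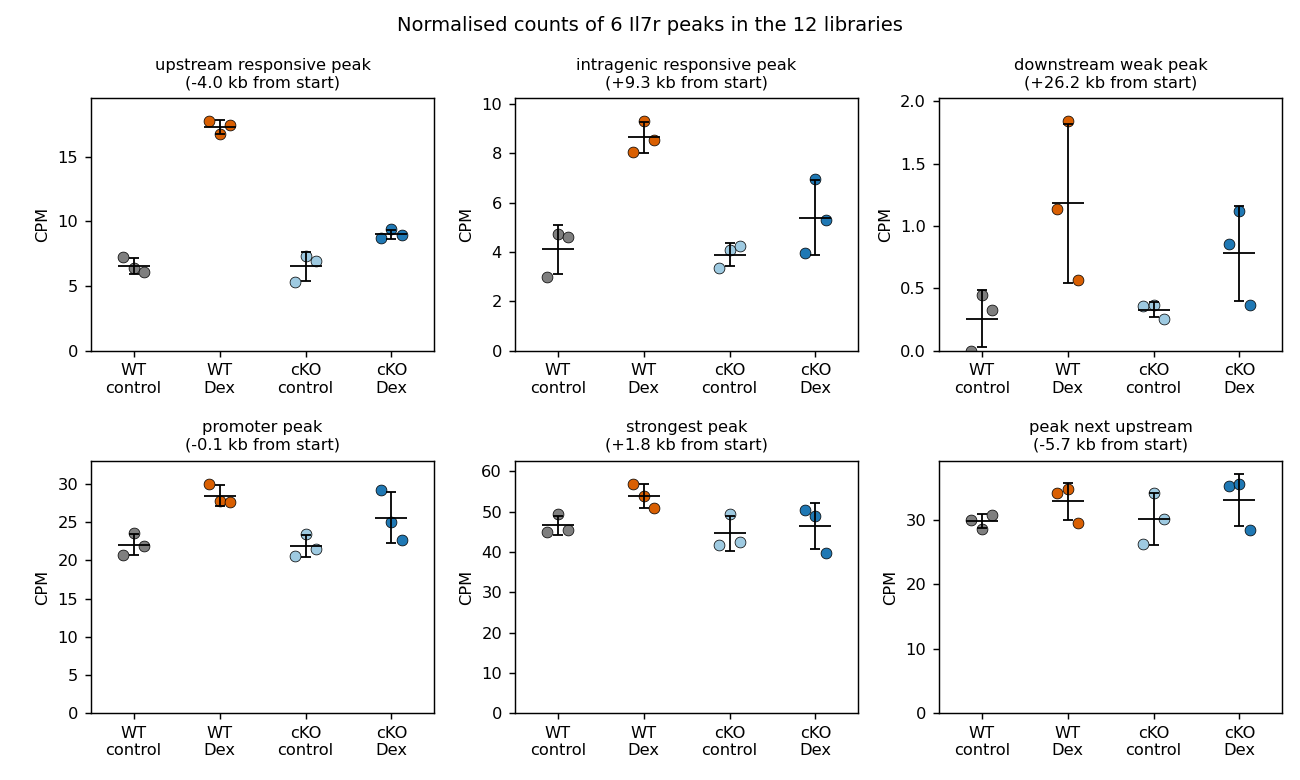
CPM of 6 Il7r peaks in each of the 12 libraries (points), with the mean and SD of each group of 3 (bars). The upstream responsive peak separates WT Dex, at 16.7 to 17.8 CPM, from all other libraries, at 5.28 to 9.39 CPM, whereas the groups overlap at the next peak upstream.

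The peaks beside the upstream responsive peak were not called with Dex in WT. The next peak upstream begins after a gap of 255 bases and is more open. WT control gave 30.0, 28.6 and 30.7 CPM and WT Dex gave 34.1, 34.8 and 29.5 CPM, so the groups overlapped, with a log2 of 0.14 ± 0.11 (95% interval -0.08 to 0.36, adjusted p = 0.819). On the promoter side the nearest peak (9532719 to 9532884) was weak. Its WT means were 0.514 ± 0.275 CPM without Dex and 0.377 ± 0.175 CPM with it (SD, n = 3). The log2 was -0.44 ± 0.65 (95% interval -1.75 to 0.87). With a mean of 8.67 counts per library, these values cannot show whether this peak moved. Beside the intragenic responsive peak, the neighbours from 9507440 and from 9523166 had log2 values of -0.16 ± 0.25 and -0.06 ± 0.53, also uncalled.

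A further 3 peaks did not overlap between WT control and WT Dex but were not called. The promoter peak stood at 20.7, 23.5 and 21.8 CPM in WT control and at 30.0, 27.7 and 27.6 CPM in WT Dex, a log2 of 0.37 ± 0.11 with an adjusted p of 0.166. The strongest peak, just inside the gene, stood at 45.0, 49.4 and 45.5 CPM against 57.0, 54.0 and 50.9 CPM, a log2 of 0.21 ± 0.10 with an adjusted p of 0.594. A weak peak past the 3′ end of the gene (9503488 to 9503790) stood at 0, 0.444 and 0.330 CPM against 1.13, 1.84 and 0.567 CPM. Its log2 was 2.04 ± 0.58 with an adjusted p of 0.105, on a mean of 12.4 counts per library. The 2 responsive peaks and these 3 were the 5 of 16 at an unadjusted p under 0.05, against 8.32% of all tested peaks. Likewise 5 of 16 Il7r peaks lay wholly higher in the WT Dex libraries and none wholly lower, against 6.96% and 6.9% of all tested peaks. In the same libraries, the share of counts held by the 10% strongest peaks genome-wide was 61.2% ± 0.771 in WT control and 62.6% ± 1.52 in WT Dex (SD, n = 3). With that share as a covariate, the log2 with Dex in WT was 0.28 ± 0.09 at the promoter peak, 0.09 ± 0.07 at the strongest peak and 0.0092 ± 0.084 at the next peak upstream, none of them called. With quantile normalisation it was 0.11 at the strongest peak and 0.05 at the next peak upstream.

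The counts of all 16 peaks were also summed per library and tested beside the sums of 17358 genes. Scaled over these sums, Il7r gave 136, 141 and 138 CPM in WT control, and WT Dex gave 169, 170 and 168 CPM. The cKO control libraries gave 135, 157 and 145 CPM, and cKO Dex gave 164, 163 and 146 CPM. The WT groups were well apart, and the cKO groups overlapped. The sum rose by a log2 of 0.29 ± 0.05 in WT (SE, n = 3 per group, adjusted p = 0.000368), where 2.64% of gene sums were called. The cKO value was 0.12 ± 0.05 (adjusted p = 0.549), where 0.00576% of gene sums were called. For cKO against WT under Dex the sum was also uncalled (log2 -0.10 ± 0.05, adjusted p = 0.348), against 2.3% of gene sums. These uncalled values were unsteady: the cKO value was 0.07 without cKO control replicate 1, 0.18 without cKO control replicate 2 and 0.06 with the concentration covariate described above. The value under Dex was -0.05 without cKO Dex replicate 3 and -0.0024 with that covariate.

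A measure free of scaling between libraries gave the same order of groups. The upstream responsive peak held 5.78, 4.69 and 4.64% of the Il7r counts in WT control and 10.5, 9.86 and 11.3% in WT Dex. In cKO its share was 4.50, 5.15 and 5.41% in control and 5.64, 6.08 and 7.04% with Dex. Control and Dex did not overlap in either genotype, and all WT Dex libraries lay above all cKO Dex libraries. Relative to the next peak upstream, its counts were 22.1% ± 2.24 in WT control and 53.1% ± 5.59 in WT Dex (SD, n = 3). In cKO these were 21.6% ± 1.39 for control and 27.6% ± 3.55 for Dex. For both ratios, the exact permutation test of Dex against control gave p = 0.1 (two-sided) in WT and in cKO, the smallest that 3 against 3 libraries allow. The peak was picked in these same libraries, as the Il7r peak with the smallest p for Dex in WT. The WT ratios are therefore not separate support for its rise. Such ratios show unequal change of the 2 peaks, not that one stayed the same.

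**Figure D3:**
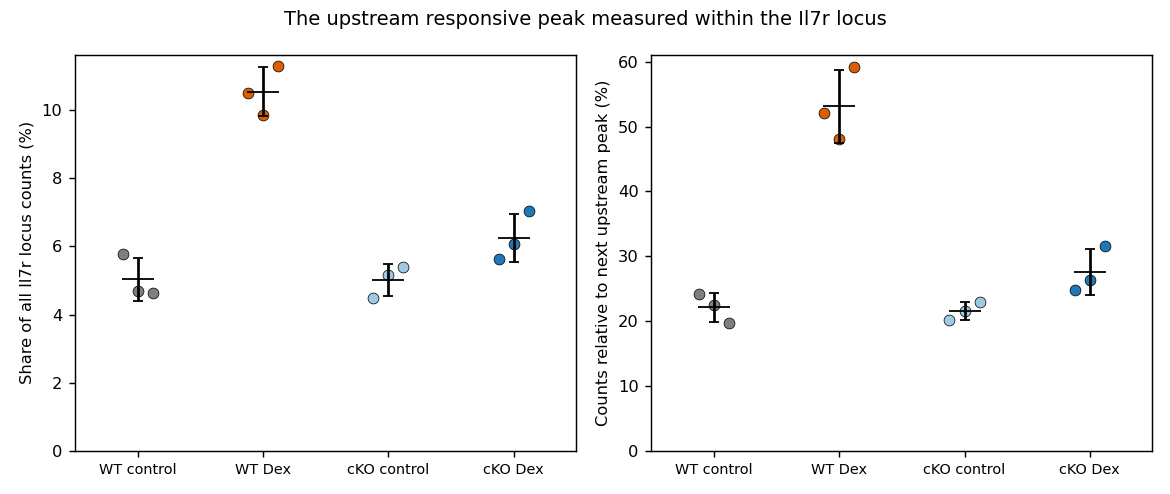
The upstream responsive peak as a percentage of all Il7r counts (left) and of the counts of the next upstream peak (right), in each library (points) with group mean and SD. WT Dex stands at 10.5% ± 0.719 of the locus, against 5.04% ± 0.641 in WT control, and cKO Dex at 6.25% ± 0.715 against 5.02% ± 0.471.

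Dex treatment of cKO cells asked how this chromatin changes with Dex when the receptor gene is targeted. At the upstream responsive peak the value was 1.38-fold (log2 0.47 ± 0.15, 95% interval 0.17 to 0.77, unadjusted p = 0.00283, edgeR adjusted p = 0.837), with all 3 Dex libraries above all 3 controls. At the intragenic peak it was also 1.38-fold, with overlapping libraries (log2 0.47 ± 0.20, adjusted p = 0.838). Without 1 library, the log2 ran from 0.34 to 0.57 at the upstream peak. At the intragenic peak it ran from 0.23 to 0.67, with the lowest value there without cKO Dex replicate 2. EdgeR called 0 of the 16 Il7r peaks, against 0.00296% of all tested peaks, and DESeq2 and limma-voom also called 0. Over all tested peaks the 6 calls depended on single libraries. They became 1, 3 and 2 without cKO control replicates 1, 2 and 3, and 2 without cKO Dex replicate 2. Without cKO Dex replicate 3 there were 314 of 212636, 41 of them higher, and still 0 at Il7r. This library differed from the other 2 of its group by 3.14 and 3.71 in chi-square per degree of freedom, against 2.04 to 2.55 for all other replicate pairs. At an unadjusted p under 0.05 there were 4 of 16, all higher with Dex, against 5.84% of all tested peaks. These were the upstream and intragenic responsive peaks, the promoter peak (log2 0.23 ± 0.11) and the weak peak past the 3′ end (1.25 ± 0.59). The log2 was positive at all 16 Il7r peaks, with a median of 0.26, against 49.5% of all tested peaks and a median of -0.0043. In WT it was positive at 12 of 16, with a median of 0.23, against 49.8% and -0.0015 over all tested peaks. The cKO groups did not overlap at 2 of 16 peaks, the upstream responsive peak and the weak one past the 3′ end, both higher with Dex, against 5.28% of all tested peaks. Which stretch of the receptor gene is deleted is in no source used here, so how complete the knockout was could not be checked from these counts.

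The difference between the Dex effects was tested directly. At the upstream responsive peak WT exceeded cKO by a log2 of 0.94 ± 0.21 (95% interval 0.52 to 1.36, n = 3 per group, unadjusted p = 3.15e-05). Its adjusted p was 0.0892, so the peak was not called, although it ranked 71 of all tested peaks. The call depended on the processing: with only peaks of a mean count of at least 20 in the test the adjusted p was 0.0065, with DESeq2 it was 0.0293, and with limma-voom it was 0.117. The log2 stayed between 0.84 and 1.06 over every alternative and every left-out library. At the intragenic peak the difference was 0.57 ± 0.27 (adjusted p = 0.866), and over the summed locus it was 0.17 ± 0.07 (adjusted p = 0.561; 0.11 without cKO control replicate 2), where 0.219% of gene sums were called. EdgeR called 0 of the 16 Il7r peaks for this difference, against 0.0276% of all tested peaks, with 2 at an unadjusted p under 0.05, against 5.65% of all.

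Genotype was compared within each treatment. In control cells the upstream responsive peak stood at 6.57 ± 0.609 CPM in WT and 6.51 ± 1.09 CPM in cKO (SD, n = 3), with a log2, cKO over WT, of 0.0019 ± 0.16 and a 95% interval from -0.31 to 0.31. No Il7r peak was called by edgeR, DESeq2 or limma-voom, against 0.0104% of all tested peaks in edgeR. A weak peak from 9544502 to 9544821 was the 1 of 16 with an unadjusted p under 0.05 (log2 0.90 ± 0.43), against 7.69% of all. Under Dex the upstream responsive peak was lower in cKO, at 9.02 ± 0.346 CPM against 17.3 ± 0.531 CPM in WT. The log2 was -0.94 ± 0.14 with an adjusted p of 2.02e-05, and it was the 1 Il7r peak of 16 called, against 0.17% of all tested peaks in either direction and 0.13% lower. At an unadjusted p under 0.05 there were 3 of 16, all lower, against 8.35% of all. The intragenic peak had a log2 of -0.68 ± 0.18 with an adjusted p of 0.112, and the cKO Dex libraries lay wholly below the WT Dex libraries there, as they did at 3 of 16 peaks, against 6.2% of all tested peaks. These comparisons share libraries with the Dex comparisons and are not separate evidence.

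**Figure D4:**
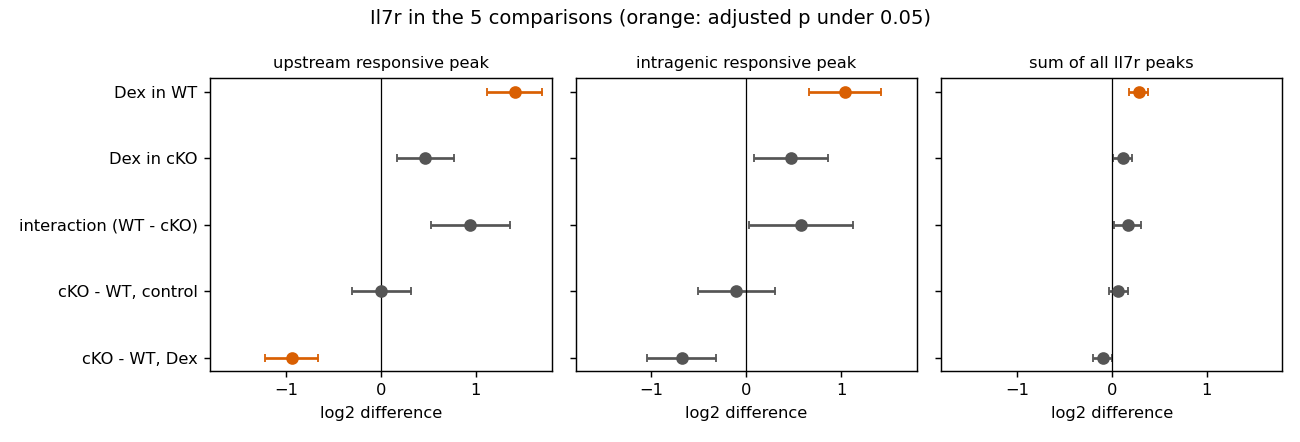
Log2 differences with 95% intervals in the 5 comparisons for the upstream responsive peak, the intragenic responsive peak and the sum of all Il7r peaks, with an adjusted p under 0.05 in orange. At the upstream peak, Dex in WT (1.41) and cKO against WT under Dex (-0.94) are called, while cKO against WT in control cells lies at 0.0019.

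The neighbouring genes showed no called peak. The 3 protein-coding genes on either side of Il7r are Ugt3a1, Ugt3a2 and Capsl below it and Spef2, Prlr and Agxt2 above it on chromosome 15. None of their 106 tested peaks was called in any of the 5 comparisons, and the smallest adjusted p was 0.0692, at Spef2. The strongest Spef2 peak (9569248 to 9570922), which lies between Il7r and Spef2, was at 90.3 CPM over the 12 libraries and had a log2 of 0.10 ± 0.10 with Dex in WT. Capsl, a calcium-binding protein gene, had a log2 of 0.20 ± 0.11 at its strongest peak. Prlr, the prolactin receptor, had 0.06 ± 0.11. Summed over its peaks, Spef2 was called in WT with a log2 of 0.13 (adjusted p = 0.0474), and none of the other 5 gene sums was called. Assignment here is by distance alone and does not show which gene a peak acts on.

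Genes that work with Il7r were taken from 5 lists, chosen with earlier results of these data known. Of their 46 genes, 7 had a peak called higher with Dex in WT and none a lower one, through 12 of 1739 tested peaks (0.690%, against 0.534% of all). Over all genes with a tested peak, 541 of 17348 had a higher one and 187 a lower one; a gene with many peaks has more chances of a call. None of the 46 had a called peak for Dex in cKO or for genotype in control cells.

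Of 11 receptor signalling genes, from ligand to kinases, 2 had a higher peak in WT, through 3 of 240 tested peaks (1.25%, against the 0.534% of all), with a median log2 of 0.16 at the strongest peaks of the list, against 0.08 over 17348 genes. At Pik3r1, a regulatory subunit of PI3 kinase, a peak within the gene rose from 4.24 ± 0.188 to 7.70 ± 1.03 CPM (SD, n = 3, log2 0.85 ± 0.18), a call that was lost without WT control replicate 2 or WT Dex replicate 1. A second one 28853 bases outside it rose from 46.8 ± 2.38 to 62.8 ± 2.80 CPM. At Jak1, a weak peak within the gene rose from 2.95 ± 0.650 to 5.24 ± 0.574 CPM (log2 0.80 ± 0.20, adjusted p = 0.0431), a call lost in 8 of the 12 fits that left out 1 library, with an adjusted p of up to 0.269. Its cKO value was 0.64 ± 0.20, and the 2 Dex effects differed by 0.16 ± 0.29. The strongest peaks of the partner chain Il2rg (log2 -0.18 ± 0.12), of Jak3 (-0.09 ± 0.10), Stat5a (0.11 ± 0.10) and Stat5b (-0.04 ± 0.12) were not called in WT. The single tested peak of Il7, at 2.37 CPM, had a log2 of 0.48 ± 0.27.

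Of 10 outputs of the receptor, mostly survival and feedback genes, 2 had higher peaks in WT, through 6 of 283 tested peaks (2.12%, against the same 0.534%), with a median log2 of 0.14 at the strongest peaks. Bcl2l11, which encodes the death promoter Bim, rose at a peak within the gene from 8.56 ± 0.967 to 20.3 ± 2.68 CPM (log2 1.24 ± 0.14), and at a weaker one from 1.76 ± 0.257 to 5.78 ± 0.936 CPM (1.73 ± 0.24). At the first, the response in WT exceeded that in cKO by 0.98 ± 0.20 (adjusted p = 0.0396), the only call for that difference among the 46 genes. Bcl2, which encodes the survival protein that opposes Bim, rose at 4 peaks within the gene by log2 values of 0.49 to 0.67, for example from 69.0 ± 4.24 to 101 ± 8.57 CPM. No peak was called at Mcl1, Pim1, Cish, Socs1, Socs2, Socs3, Cdkn1b or Slc2a1.

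Of 12 regulators of Il7r transcription, 1 had a called peak, 1 of 718 tested (0.139%, below the 0.534% of all). The common gamma chain receptors had 1 of 124 (0.806%) and the naive and memory genes 1 of 374 (0.267%). The regulator's peak lay within Foxp1, a repressor of Il7r in naive T cells, and rose from 21.2 ± 2.09 to 34.9 ± 3.04 CPM in WT (log2 0.72 ± 0.11), against 19.8 ± 1.03 and 21.6 ± 2.62 CPM in cKO. Among 6 receptor genes of the common gamma chain family, Il4ra was called (log2 0.42 ± 0.10, adjusted p = 0.0318), from 35.2 to 47.3 CPM, a call lost in 6 of the 12 fits that left out 1 library, with an adjusted p of up to 0.337. Among 7 naive and memory genes, S1pr1, the receptor for lymphocyte exit from lymph nodes, was called at a peak 36828 bases outside it, which rose from 7.81 ± 0.449 to 13.8 ± 1.69 CPM. Its cKO values were 8.58 ± 0.687 and 8.75 ± 0.315 CPM.

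**Figure D5:**
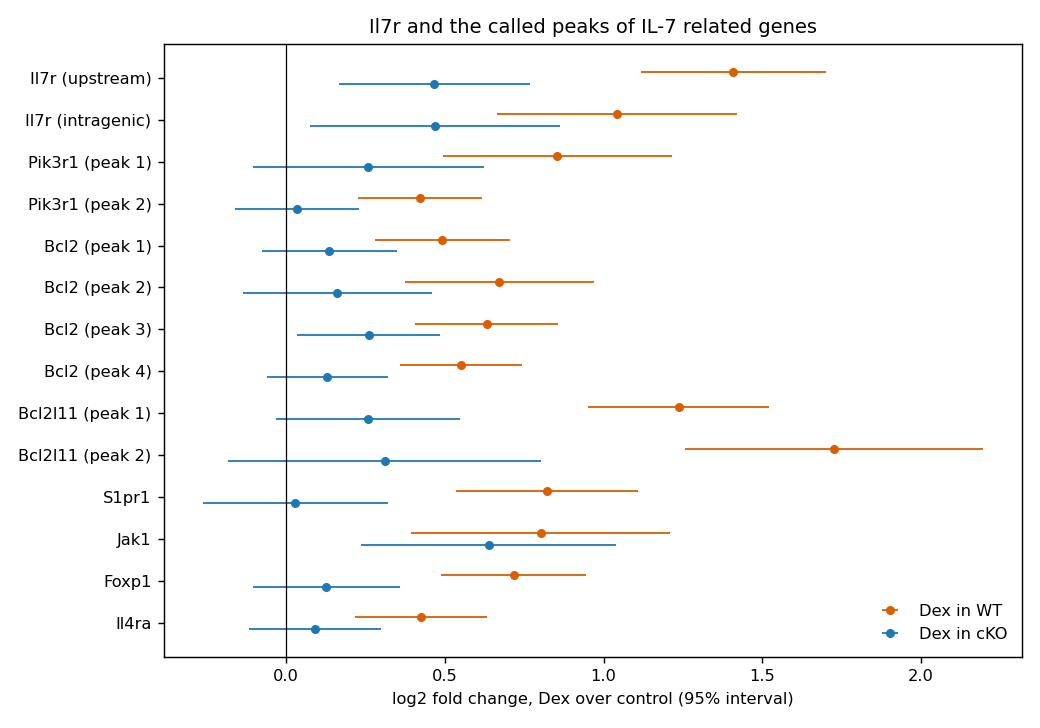
Log2 fold change of Dex over control with 95% intervals in WT (orange) and cKO (blue) at the 2 responsive Il7r peaks and at the 12 called peaks of the listed genes. WT values were used to choose the peaks and are larger at each; Jak1 has the closest pair, at 0.80 and 0.64.

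Other peaks followed the upstream responsive peak closely over the 12 libraries. Among 41984 tested peaks outside Il7r with a mean of at least 5 CPM, the highest Pearson correlations of log2 CPM with it were at a peak within Alpk2 (r = 0.984), one near Anapc16 (0.982), one near 1810055G02Rik (0.980), one within Maml3, a Notch coactivator gene (0.979), and one near nonagouti (0.979). For the Anapc16 peak, the means were 34.1 and 73.5 CPM in WT without and with Dex, and 35.5 and 43.2 CPM in cKO. The summed Il7r locus was most like Corin (r = 0.950), Chm (0.945), Acp6 (0.942), Sv2c (0.940) and Mob1b (0.935) among 17357 gene sums. These are descriptions of 12 points that share groups and depth.

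Depth and identity of the libraries were as follows. Totals ran from 12988437 to 25081591 counts per library. The T cell genes Cd3e, Cd3g, Cd4, Lck, Cd2, Cd5 and Thy1 each had a strongest peak with a mean of 33.0 to 174 CPM, and the Th17 genes Il17a, Il17f, Ccr6 and Il23r one of 31.6 to 69.9 CPM. Of the other cells' markers, Cd79a, Ms4a1, Lyz2 and Gata1 were at or under 2.44 CPM and Hbb-bs had no peak, whereas Ebf1, Itgam and Pecam1 reached 41.4 to 49.9 CPM. Summed over 7 T cell genes, the level was 1401 to 1433 CPM in WT control and 1417 to 1532 CPM in WT Dex. In cKO it was 1310 to 1450 CPM without and 1327 to 1511 CPM with Dex. Over 5 B cell genes it was, in WT without and with Dex, 356 to 387 and 340 to 364 CPM, over 5 CD8 T and NK cell genes 157 to 163 and 154 to 158 CPM, over 5 myeloid genes 168 to 178 and 175 to 184 CPM, and over 4 erythroid and stromal genes 296 to 307 and 305 to 313 CPM. Their part in the Il7r results was not tested.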

How the data were processed

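ATAC-seq was measured in 12 libraries of 4 groups, assigned from the labels, each from 6000 sorted cells and 16 PCR cycles. The authors deposited raw counts over a joint set of 222105 peaks, whole numbers in the featureCounts layout per the file headers. The submitters' processing notes name mm10 and, with no roles, featureCounts 2.1.1, Subread, Genrich 0.6.1, Bowtie2 2.3.5, Trimmomatic 0.39, SAMtools 1.3, Picard 2.18.27 and deepTools 3.5.6. No source used here gives the filters, a shift for the Tn5 cut, the counting of reads or fragments, or any pooling before peak calling. A joint peak set can favour sites open in the Dex libraries.

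With R 4.3.3 and edgeR 4.0.16, the function filterByExpr (at least 10 counts, total of at least 15) left 202587 peaks. Counts were scaled by TMM and fitted with edgeR's robust quasi-likelihood test over all libraries with 1 coefficient per group (8 residual degrees of freedom). P-values were adjusted by Benjamini-Hochberg over all tested peaks. The SE is the log2 fold change divided by the square root of F. Gene sums were fitted the same way. Replicates differed by 2.04 to 3.71 in chi-square per degree of freedom, so none was a duplicate. The steps were also run on simulated counts, drawn independently for each library. Changes were placed only in WT Dex, at peaks with a mean count of at least 20. That run therefore does not cover weaker peaks or deviations shared by libraries. Alternatives were DESeq2 1.42.0, limma 3.58.1 (voom), other scalings and filters, a replicate block, a covariate, other distance limits and each library left out.

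The gene spans came from a RefSeq table of 21631 protein-coding genes, and the promoter from RefSeq on GRCm38.p6. Log2 CPM for likeness used a pseudocount of 0.5. The genes named were all Il7r peaks called in any comparison, the strongest, the promoter peak, the next 3 by p, the neighbours of called peaks, list genes with a called peak, the receptor core, 3 genes on either side and the 5 most alike. Members and lists were chosen with earlier results of these data known, and the motifs with the promoter sequence in view. Intervals and floors cover counting error and library spread only.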

Additional observations from a re-analysis of the deposited data

How the results depend on the processing

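In all, 31 results, of which 7 are peaks of Jak1, Pik3r1, Bcl2, Bcl2l11, Foxp1, Il4ra and S1pr1 and the rest concern Il7r, were recomputed under up to 13 alternatives and with each of the 12 libraries left out. Of 725 values, 664 were labelled as kept. For a log2 this meant the same direction and the same side of the threshold. For a count of called Il7r peaks it meant an equal or close count, so that 3 instead of 2 for Dex in WT was labelled as kept. The rises of the upstream and intragenic responsive peaks and of the locus sum with Dex in WT, and the lower upstream peak in cKO under Dex, were called in all of these; without 1 library, their log2 values were 1.35 to 1.47, 0.89 to 1.14, 0.27 to 0.30 and -0.97 to -0.91.

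The difference between Dex effects at the upstream peak passed the threshold in 7 alternatives. Its log2 was 0.95 with total counts (adjusted p = 0.0195), 0.95 with quantile normalisation (0.0184), 0.94 with DESeq2 (0.0293), 0.95 with sample quality weights (0.047), 0.98 with a mean count of at least 20 (0.0065) and 0.94 with the concentration share as a covariate (0.00677). With the replicate block it was 0.94 (0.0336). In each of these 7, 1 Il7r peak was called for the difference instead of 0. Without 1 library it ran from 0.84 to 1.06, and the count from 0 to 1; only without cKO control replicate 1 was it called (0.0424). The stricter filter left 111996 peaks in the test instead of 202587 and refitted all of them. The cause of these changes in the call was not tested.

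For cKO against WT under Dex, 2 Il7r peaks were called instead of 1 with quantile normalisation, limma-voom, sample quality weights, a mean count of at least 20, the replicate block and the concentration share as a covariate, 0 when only peaks within the gene counted, and 1 to 2 without 1 library. The second was the intragenic peak, except with that covariate, and the intragenic peak was also called without cKO Dex replicate 2 (log2 -0.92). For Dex in WT, 1 was called when only peaks within the gene counted. The promoter peak was called with a mean count of at least 20 (0.35, adjusted p = 0.023), and the weak peak past the 3′ end without WT Dex replicate 3 (2.38).

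Sign changes occurred only for cKO against WT in control cells. The upstream peak had -0.0048 with DESeq2 size factors and -0.0037 with no filter, and ran from -0.084 to 0.13 without 1 library. The intragenic peak had 0.0049 once that covariate was added and ran from -0.25 to 0.0094 without 1 library.

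Replicate numbers are shared by the labels, but the labels do not say what a number shares, and not every same-numbered pair deviated together, so the numbers were not taken to pair the libraries. Same-number correlations ran from -0.20 to 0.28 (mean 0.039, 5 of 18 over 0.1), against a mean of -0.019 over 36 pairs of other numbers. As a hint from the data of some shared deviation, 9 of 12 libraries had a higher mean correlation, and 8 of 12 their best single one, with their own number. The replicate block moved the calls over all peaks for Dex in WT from 1081 to 1747 and for the interaction from 56 to 99.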
